A study of Mus musculus with 4 samples.

Results

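Axon guidance genes of the semaphorin, plexin, ephrin, Eph, Slit, Robo and netrin families were followed in mouse abdominal aortic grafts. Members were the protein-coding rows of the deposited count table whose symbol carries one of these family names, with Robo1 to Robo3 and Dcc added and Sema3d left out. They numbered 75 of the 54752 gene IDs in the table, and 63 of them passed the filter on low counts and were tested. Of the 75, 8 fit the rule only by their letters, being the Slitrk genes, Unc50 and Unc5cl, which do not belong to these ligand and receptor families, and they are kept apart below. The grafts were whole aortic tissue taken 4 weeks after transplantation, in a group labelled ALLO, allografts per the series title, and in one labelled ISO, whose meaning the labels leave unstated. Each group had 2 libraries, which were depleted of ribosomal RNA. The strain, sex and age of the mice were not stated, nor was it said that replicates were separate animals. The p-values therefore reflect the spread between these 4 libraries alone, some of which may be technical.

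Semaphorins are ligands, secreted in class 3 and bound to the membrane in classes 4 to 7, that signal through plexins, for most of class 3 together with a neuropilin. Ephrins are ligands held on the cell surface that activate Eph receptor tyrosine kinases on neighbouring cells, while Slits are secreted ligands of Robo receptors, and netrins act through Dcc, neogenin and the Unc5 receptors. They are named for steering axons. In vessels they also shape arterial and venous identity, sprouting and smooth muscle coverage, and several semaphorins act between immune cells.

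Libraries held between 17532344 and 20194854 counts. ISO replicate 1 stood apart in sex, with 10647 counts of Xist and 0 of the Y-linked Ddx3y. In each of the others Ddx3y had 2105 counts or more and Xist 8 or fewer. Smooth muscle markers, which define the aortic wall, were detected in every library. Of these, 7 of 8 were lower in ALLO, with summed levels of 1430 and 2753 counts per 1000000 (CPM) in ALLO libraries and 29798 and 29971 CPM in ISO libraries. T cell markers were higher in 8 of 8 cases (382 and 302 CPM in ALLO, 10.5 and 2.17 CPM in ISO) and macrophage markers in 7 of 8 (3667 and 4182 CPM in ALLO, 596 and 321 CPM in ISO). Of the B cell markers 0 of 6 passed edgeR's test (adjusted p between 0.0839 and 0.196), 2 had an unadjusted p under 0.05, and DESeq2 called 0 and limma-voom 2. Their sums were 304 and 138 CPM in ALLO and 43.8 and 0.422 CPM in ISO, with the ISO libraries far apart. Plasma cell markers, 3 of 5 higher, summed to 3490 and 1353 CPM in ALLO and 292 and 199 CPM in ISO. Lymphatic endothelial markers were higher in 5 of 5 cases (507 and 245 CPM in ALLO, 72.0 and 46.2 CPM in ISO). Endothelial markers gave 4 lower and 1 higher of 8 (738 and 822 CPM in ALLO, 1637 and 1674 CPM in ISO), fibroblast markers 1 lower of 7 (14408 and 19624 CPM in ALLO, 7234 and 9401 CPM in ISO) and adipocyte markers 1 higher of 4 tested (580 and 492 CPM in ALLO, 658 and 390 CPM in ISO). In bulk tissue, fewer cells of a type and less RNA per cell cannot be told apart.

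The comparison asked how ALLO aorta differed from ISO aorta in these signalling families. Of the 63 members tested, 12 were higher and 17 lower in ALLO, 29 or 46.0% in all, at a Benjamini-Hochberg adjusted p under 0.05 in edgeR's quasi-likelihood test. Over all 16498 genes tested the share called was 33.1%, with 18.4% higher and 14.8% lower, against 19% higher and 27% lower among the members. The median log2 change of the tested members was -0.33, beside 0.03 over all genes tested. Libraries of the groups did not overlap for 46 of the 63, 18 with ALLO higher and 28 with ALLO lower, where 72.5% of all genes tested did not overlap, 37.1% with ALLO higher and 35.4% with ALLO lower. When any 1 library was left out, 20 of the 29 kept their call. Without ISO replicate 1, 13 members were higher and 16 lower, with 14% of all genes tested higher and 9.32% lower. Without ISO replicate 2, 6 were higher and 18 lower (11.7% and 8.44% of all genes). Without ALLO replicate 1, 9 were higher and 18 lower (11.8% and 9.66%), and without ALLO replicate 2, 7 were higher and 16 lower (13.8% and 12.9%). Tested against a 1.5-fold change, 7 members were higher and 16 lower, with 13.6% of all genes higher and 9.49% lower.

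**Figure D1:**
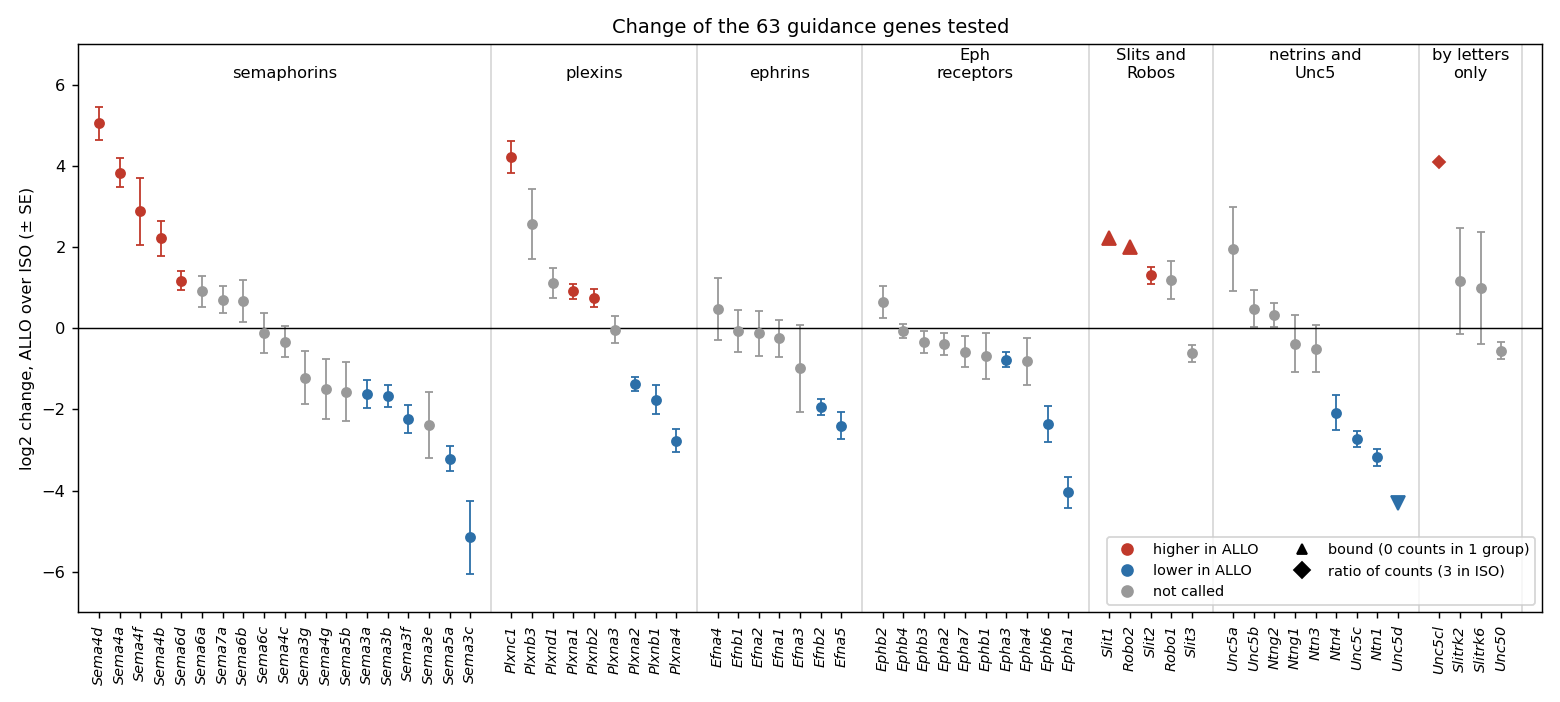
Log2 change (ALLO over ISO, vertical axis) with its standard error for the 63 members tested, by family. Red and blue symbols passed the adjusted p of 0.05, triangles are bounds of genes at 0 counts in a group and the diamond is a ratio of counts. The highest point is Sema4d at 5.04 and the lowest is Sema3c at -5.15.

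Levels below are counts per kilobase of the gene length in the deposited table and per 1000000 counts, scaled for composition (RPKM), so that genes can be set beside each other. The order of the members by mean level differed between the groups. In ALLO, Plxnb2 was the highest at 45.3 ± 5.62 RPKM (SD, n = 2), before Sema4d at 37.8 ± 1.70 RPKM, Slit3 at 35.9 ± 0.783 RPKM and Sema4a at 31.8 ± 1.05 RPKM. In ISO, Ntn1 was the highest at 80.1 ± 2.26 RPKM, before Sema3f at 59.8 ± 0.402 RPKM and Slit3 at 55.1 ± 7.16 RPKM. Sema4d, which ranked 2 in ALLO, ranked 39 in ISO, and Sema3c, which ranked 5 in ISO, ranked 39 in ALLO.

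**Figure D2:**
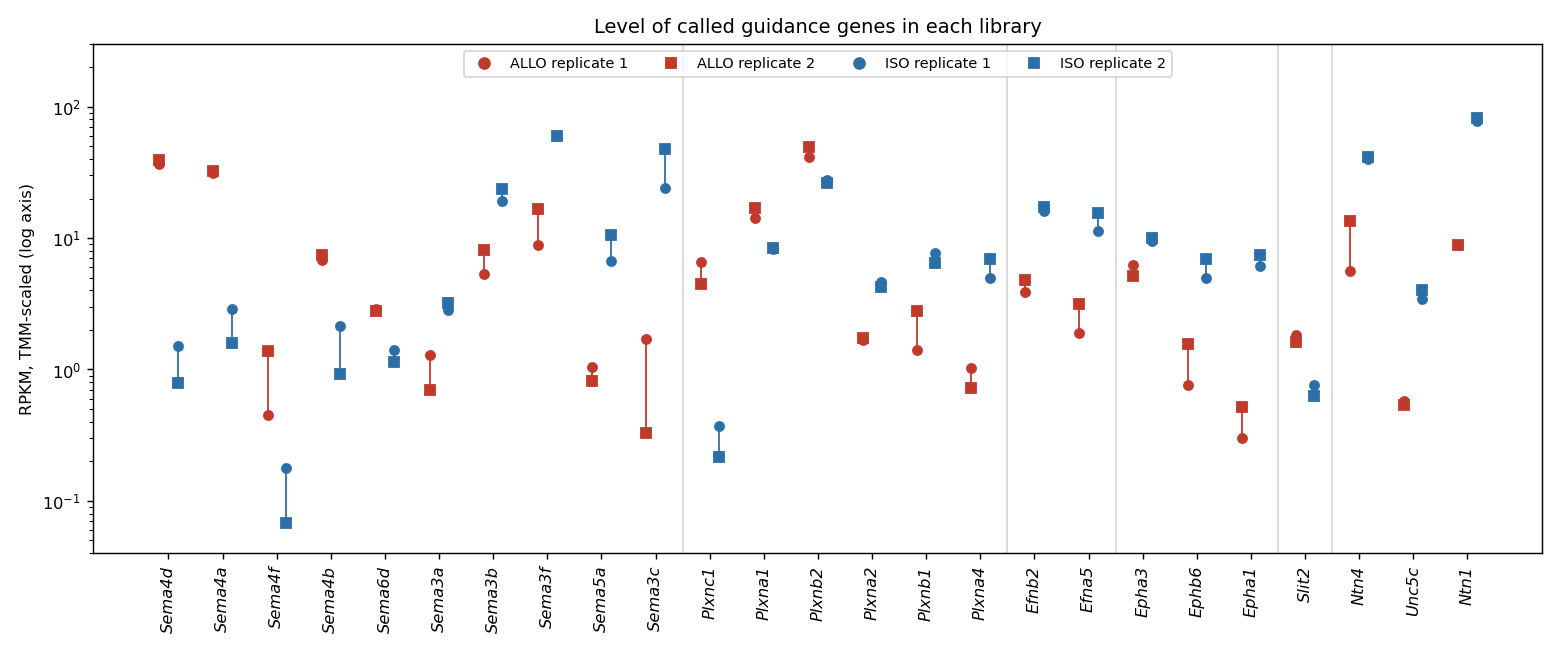
RPKM on a log axis in each library for the 25 called members with more than 3 counts in both groups, with ALLO in red to the left of ISO in blue. Circles are replicate 1 and squares replicate 2, joined by a line. Sema4d lies at 36.6 and 39.0 RPKM in ALLO and at 1.51 and 0.786 RPKM in ISO.

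All 19 semaphorins were tested, and 5 rose, 5 fell and 9 did not pass. Beside this and the family counts below, 18.4% of all genes tested were higher and 14.8% lower. No family was tested as a set. In class 4, 4 of 6 rose, and in class 3, 4 of 6 fell. The classes follow the gene names and were set out after the values had been seen. Summed over its members, class 4 stood at 79.2 and 88.1 RPKM in ALLO and 15.5 and 10.1 RPKM in ISO, and class 3 at 20.5 and 34.8 RPKM in ALLO and 127 and 143 RPKM in ISO. Class 3 took 16.96% and 22.5% of summed semaphorin RPKM in the ALLO libraries and 75.3% and 80.8% in the ISO libraries, while class 4 took 65.5% and 56.9% in ALLO and 9.18% and 5.68% in ISO.

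**Figure D3:**
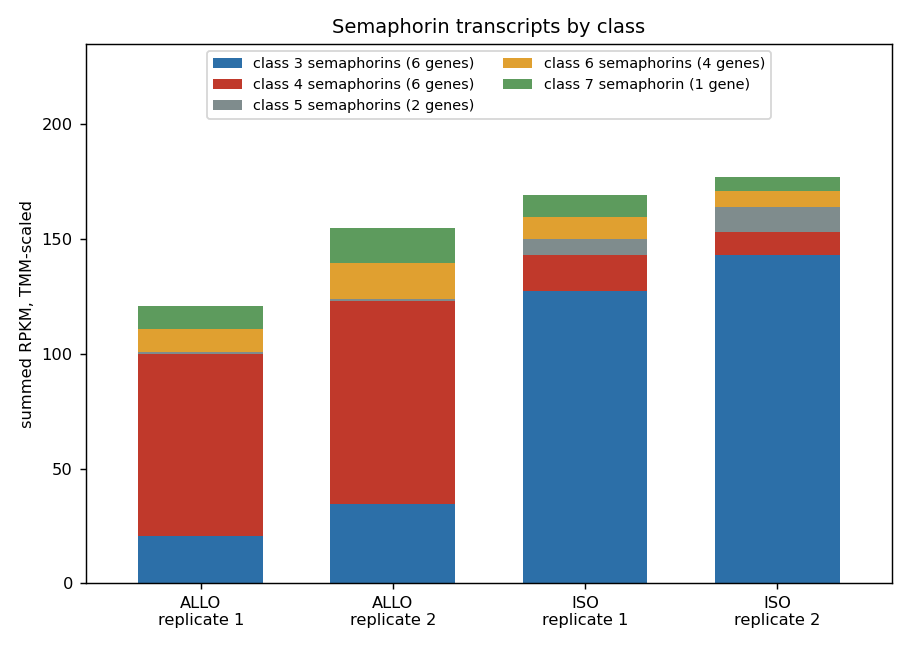
Summed RPKM of the semaphorins in each library, stacked by class, without Sema3d. Class 4, in red, makes up 65.5% and 56.9% of the bars of the ALLO libraries, and class 3, in blue, 75.3% and 80.8% of those of the ISO libraries.

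Sema4d encodes CD100, a membrane semaphorin of T cells and other leukocytes that binds plexin-B1, plexin-B2 and CD72 (ENSMUSG00000021451.16, chromosome 13, 51685529 to 51793747, mm10). It stood at 36.6 and 39.0 RPKM in ALLO and at 1.51 and 0.786 RPKM in ISO. The ALLO libraries were close to each other, and the nearest ISO library was far below both. The log2 change was 5.04 ± 0.40 (SE), 33.0-fold (edgeR adjusted p = 0.00321), and between 24.7-fold and 47.6-fold with 1 library left out. Sema4a, known from dendritic and B cells and a ligand of Tim-2 in the mouse (ENSMUSG00000028064.17, chromosome 3, 88435959 to 88461182), stood at 31.1 and 32.6 RPKM in ALLO and at 2.88 and 1.59 RPKM in ISO. It rose 14.3-fold (log2 change 3.83 ± 0.35, edgeR adjusted p = 0.00379). Both genes were higher in every ALLO library than in any ISO library, and within ISO both were higher in replicate 1. T cell and macrophage markers moved in the same direction, also within ISO. Sums of B cell and plasma cell markers were likewise higher in ALLO, and in ISO replicate 1. Within ALLO both genes were slightly higher in replicate 2, as was the macrophage sum, though not its members Csf1r, Adgre1, Cd68 and Mertk. The T cell (302 CPM, and 382 CPM in replicate 1), B cell and plasma cell sums were lower there. The part of these lists in these results was not tested.

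The other class 4 members that passed had lower levels. Sema4b stood at 6.86 and 7.44 RPKM in ALLO and at 2.13 and 0.930 RPKM in ISO, 4.66-fold higher (edgeR adjusted p = 0.0180, 7.61-fold without ISO replicate 1). Sema4f had 46 and 160 counts in ALLO and 16 and 6 in ISO, so its ALLO libraries lay far apart. Its rise of 7.35-fold (edgeR adjusted p = 0.0496) was lost without ISO replicate 2 (adjusted p = 0.116) and without ALLO replicate 2 (adjusted p = 0.196), and it was 13.0-fold without ISO replicate 1 and 11.4-fold without ALLO replicate 1. Sema4c, a ligand of plexin-B2, did not pass at 3.95 and 7.57 RPKM in ALLO and 8.54 and 5.95 RPKM in ISO, with overlapping groups, and neither did the weakly detected Sema4g.

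Class 3 semaphorins were at their highest in ISO. Sema3f, a neuropilin-2 ligand that repels endothelial cells (ENSMUSG00000034684.12, chromosome 9, 107681500 to 107710475), stood at 8.86 and 16.5 RPKM in ALLO and at 59.5 and 60.0 RPKM in ISO. It fell 4.71-fold (log2 change -2.24 ± 0.35, edgeR adjusted p = 0.0105). Sema3b lies 72.3 kb from Sema3f on chromosome 9 with 3 protein-coding genes between them, and it fell 3.18-fold (5.37 and 8.13 RPKM in ALLO, 19.2 and 23.7 RPKM in ISO, edgeR adjusted p = 0.0114). For both neighbours the groups were well separated and ALLO replicate 2 was the higher of the ALLO libraries.

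Sema3c, a ligand needed for the outflow tract of the developing heart (ENSMUSG00000028780.13, chromosome 5, 17574281 to 17730268), had the largest fitted fall among the members with counts in every library. It stood at 1.70 and 0.331 RPKM in ALLO and at 24.0 and 48.0 RPKM in ISO. The replicates of each group differed, with ALLO replicate 2 and ISO replicate 2 at the extremes. The fall of 35.5-fold (log2 change -5.15 ± 0.91, edgeR adjusted p = 0.0140) came to 107-fold when ALLO replicate 1 was left out and to 21.2-fold when ALLO replicate 2 was. Sema3a, the founding chemorepellent of the class, fell 3.07-fold at lower levels (1.28 and 0.694 RPKM in ALLO, 2.85 and 3.21 RPKM in ISO, edgeR adjusted p = 0.0230).

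Sema3e, the plexin-D1 ligand, stood at 0.111 and 0.220 RPKM in ALLO and at 1.41 and 0.338 RPKM in ISO and did not pass (edgeR adjusted p = 0.0779), but it was 8.60-fold lower without ISO replicate 2 (adjusted p = 0.00612). Sema3g, known from arterial endothelium, stood at 3.20 and 8.90 RPKM in ALLO and at 20.5 and 7.70 RPKM in ISO, and its groups overlapped (edgeR adjusted p = 0.213, and 0.0392 without ISO replicate 2). In both genes ISO replicate 1 was far above ISO replicate 2.

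Of the remaining semaphorins, Sema5a, which carries thrombospondin repeats and binds plexin-A1 and plexin-A3 (ENSMUSG00000022231.10, chromosome 15, 32244810 to 32696341), fell. It stood at 1.05 and 0.824 RPKM in ALLO and at 6.70 and 10.7 RPKM in ISO, 9.25-fold lower (log2 change -3.21 ± 0.31, edgeR adjusted p = 0.00424). Sema6d, a ligand of plexin-A1, rose 2.25-fold (2.90 and 2.79 RPKM in ALLO, 1.39 and 1.13 RPKM in ISO, edgeR adjusted p = 0.0193), a call lost without ISO replicate 2 (adjusted p = 0.102). Sema7a, the lipid-anchored ligand of plexin-C1, did not pass at 10.1 and 15.4 RPKM in ALLO and 9.64 and 6.002 RPKM in ISO (edgeR adjusted p = 0.173). Sema5b, Sema6a, Sema6b and Sema6c did not pass either.

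All 9 plexins were tested, 3 of which rose and 3 fell. Plxnc1, the receptor of Sema7a (ENSMUSG00000074785.5, chromosome 10, 94790866 to 94944835), stood at 6.55 and 4.45 RPKM in ALLO and at 0.371 and 0.217 RPKM in ISO. It rose 18.6-fold (log2 change 4.22 ± 0.40, edgeR adjusted p = 0.00395), and the fold lay between 14.5 and 25.0 with 1 library left out. It was a gene of low level in ISO. Macrophage markers (7 of 8), T cell markers (8 of 8) and lymphatic endothelial markers (5 of 5) were also higher in ALLO. Within ALLO, Plxnc1 was higher in replicate 1, as were the T cell and lymphatic sums. The macrophage sum was lower there (3667 CPM, and 4182 CPM in replicate 2). Its members were split, with C1qa, C1qb, C1qc and Fcgr1 lower in ALLO replicate 1. Csf1r, Adgre1 and Cd68 were higher in it, and Mertk was nearly level. The part of these lists was not tested.

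Plexins of the A and B classes moved both ways. Plxna4, a receptor for class 3 and class 6 semaphorins, fell 6.80-fold (1.02 and 0.718 RPKM in ALLO, 4.92 and 6.89 RPKM in ISO, edgeR adjusted p = 0.00468), and Plxna2, a partner of the neuropilins, fell 2.60-fold (1.68 and 1.72 RPKM in ALLO, 4.60 and 4.23 RPKM in ISO, edgeR adjusted p = 0.00604). Plxna1, the receptor of Sema6d, rose 1.88-fold (14.2 and 16.9 RPKM in ALLO, 8.19 and 8.40 RPKM in ISO, edgeR adjusted p = 0.0225), a call lost without ISO replicate 1 (adjusted p = 0.152) and without ISO replicate 2 (0.151). The ALLO and ISO libraries did not overlap for any of these 3 genes.

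The B plexins are receptors of class 4 semaphorins. Plxnb1, which binds Sema4d with high affinity, fell 3.39-fold (1.40 and 2.78 RPKM in ALLO, 7.76 and 6.43 RPKM in ISO, edgeR adjusted p = 0.0210). Plxnb2, a receptor with a wide expression, stood at 41.3 and 49.2 RPKM in ALLO and at 27.8 and 26.3 RPKM in ISO, 1.68-fold higher (edgeR adjusted p = 0.0494). That call was lost without ISO replicate 1 (adjusted p = 0.260), without ISO replicate 2 (0.341) and without ALLO replicate 2 (0.0821). Plxnd1, the endothelial receptor of Sema3e, did not pass at 23.4 and 37.0 RPKM in ALLO and 17.6 and 10.3 RPKM in ISO, but passed without ISO replicate 1 (2.91-fold, edgeR adjusted p = 0.0478).

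The X-linked Plxnb3 had 114 and 185 counts in ALLO and 36 and 5 in ISO and did not pass (edgeR adjusted p = 0.0771). The ISO libraries differed more than the ALLO libraries did, and without ISO replicate 1 it was 23.0-fold higher (adjusted p = 0.00377). Plxna3 lies 557 kb from Plxnb3 on the X chromosome, with 23 protein-coding genes between them. It had a log2 change of -0.04 ± 0.33 and did not pass.

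Among the 8 ephrin ligands, 7 were tested, of which 2 fell and 5 did not pass. Efnb2, the ligand that marks arterial endothelium and is also made by arterial smooth muscle (ENSMUSG00000001300.16, chromosome 8, 8617434 to 8661242), stood at 3.86 and 4.79 RPKM in ALLO and at 15.98 and 17.3 RPKM in ISO. It fell 3.85-fold (log2 change -1.94 ± 0.20, edgeR adjusted p = 0.00457), with replicates of each group close together. Efna5, an ephrin held by a lipid anchor (ENSMUSG00000048915.12, chromosome 17, 62604184 to 62881317), fell 5.30-fold (1.91 and 3.14 RPKM in ALLO, 11.4 and 15.4 RPKM in ISO, edgeR adjusted p = 0.00788). Smooth muscle markers, 7 of 8 lower, moved in the same direction, whereas endothelial markers were mixed, with 4 of 8 lower and Emcn higher. The part of either list was not tested.

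Efnb1, on the X chromosome, did not pass at 3.78 and 11.0 RPKM in ALLO and 8.84 and 6.64 RPKM in ISO, where the ALLO libraries lay on both sides of the ISO libraries. Efna1, Efna3 and Efna4 are neighbours on chromosome 3, with 52.2 kb from Efna1 to Efna4, and did not pass. Efna2 did not pass, and Efnb3 had between 4 and 16 counts per library and was not tested.

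Of the 14 Eph receptors 10 were tested, of which 3 fell and 7 did not pass. Epha1 (ENSMUSG00000029859.6, chromosome 6, 42358487 to 42373268), a receptor of A-type ephrins, stood at 0.301 and 0.520 RPKM in ALLO and at 6.18 and 7.39 RPKM in ISO. It fell 16.4-fold (log2 change -4.04 ± 0.38, edgeR adjusted p = 0.00395), and 6.01% of its exonic bases are shared with Zyx on the opposite strand. Ephb6, a receptor without kinase activity, lies 738 kb from Epha1 with 18 protein-coding genes between them. It fell 5.12-fold (0.763 and 1.55 RPKM in ALLO, 5.01 and 6.89 RPKM in ISO, edgeR adjusted p = 0.0160, 7.77-fold without ALLO replicate 2). Both neighbours were lowest in ALLO replicate 1 and highest in ISO replicate 2.

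Epha3, a receptor that binds ephrin-A5, fell 1.71-fold (6.20 and 5.14 RPKM in ALLO, 9.44 and 9.98 RPKM in ISO, edgeR adjusted p = 0.0305). That call was lost without ISO replicate 1 (adjusted p = 0.0963), without ISO replicate 2 (0.141) and without ALLO replicate 2 (0.0731). Ephb4, the venous partner of ephrin-B2 and the most abundant Eph receptor here, stood at 14.6 and 14.5 RPKM in ALLO and at 16.3 and 14.2 RPKM in ISO. Its log2 change of -0.07 ± 0.17 (edgeR adjusted p = 0.780) turned sign when libraries were scaled by size alone or ISO replicate 1 was left out. Epha2, Epha7, Ephb1, Ephb2 and Ephb3 did not pass, and Epha4 did not pass either, but did as lower without ALLO replicate 1 (3.59-fold, edgeR adjusted p = 0.0482).

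Promoters are shown for the 4 members with an adjusted p under 0.01 for which RefSeq (GRCm38.p6) listed a single start and whose window of 250 bases before it held no exon of the gene in GENCODE M21. They set Plxnc1, which rose, beside Epha1, Efnb2 and Efna5, which fell. Each is printed on the strand of its gene, 5′ to 3′, and ends at the base before the start. Capitals mark matches, on either strand, to any of 6 motifs, picked with the results known. The motifs were AANNGAAA (the core bound by interferon regulatory factors), TTCNNNGAA (the gamma-activated site), GAGGAAGT (the core bound by PU.1), GGGCGG (the GC box), TATAAA (the TATA box) and the CArG box of serum response factor. No match overlapped another in these windows.
Plxnc1 (chr10:94944846-94945095, minus strand): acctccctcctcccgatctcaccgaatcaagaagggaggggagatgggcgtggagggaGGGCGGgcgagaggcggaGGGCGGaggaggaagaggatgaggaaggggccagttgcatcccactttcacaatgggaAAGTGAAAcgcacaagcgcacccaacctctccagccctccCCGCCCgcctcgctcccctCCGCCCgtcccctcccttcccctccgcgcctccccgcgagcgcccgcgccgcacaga
Epha1 (chr6:42373269-42373518, minus strand): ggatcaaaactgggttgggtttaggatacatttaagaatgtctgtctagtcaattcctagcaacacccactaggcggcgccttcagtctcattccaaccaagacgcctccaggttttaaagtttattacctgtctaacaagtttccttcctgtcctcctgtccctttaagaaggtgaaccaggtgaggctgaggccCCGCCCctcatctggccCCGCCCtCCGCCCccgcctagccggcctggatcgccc
Efnb2 (chr8:8661243-8661492, minus strand): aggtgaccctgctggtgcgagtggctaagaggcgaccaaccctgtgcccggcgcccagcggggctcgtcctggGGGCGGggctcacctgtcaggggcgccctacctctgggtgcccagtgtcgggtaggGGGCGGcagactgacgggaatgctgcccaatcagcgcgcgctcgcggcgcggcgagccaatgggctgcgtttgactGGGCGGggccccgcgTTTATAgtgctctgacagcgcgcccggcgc
Efna5 (chr17:62881318-62881567, minus strand): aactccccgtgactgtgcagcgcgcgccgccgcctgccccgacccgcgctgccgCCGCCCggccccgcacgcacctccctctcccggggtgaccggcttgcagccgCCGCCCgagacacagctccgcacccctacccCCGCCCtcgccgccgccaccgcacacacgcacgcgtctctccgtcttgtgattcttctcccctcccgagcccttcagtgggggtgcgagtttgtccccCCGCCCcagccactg
Plxnc1 held 1 match to the core of interferon regulatory factors, 116 bases before the start, a motif found in 21.3% of 32851 promoter windows of the same length. GC boxes were matched 4 times in Plxnc1, 3 times in Epha1, 3 times in Efnb2 and 4 times in Efna5, and 32.7% of all windows held at least 1. Efnb2 held 1 match to the TATA box, 30 bases before the start, against 12.4% of all windows. That match lies on the strand opposite to the gene, so it is inverted and printed as TTTATA. The gamma-activated site, the PU.1 core and the CArG box, in 7.02%, 2.44% and 1.47% of all windows, were not matched in these 4 windows. A match is a description of letters, and binding was not measured.

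Slits and Robos numbered 6, of which 5 were tested, and 3 rose. Slit3, the most abundant member over all libraries, stood at 36.5 and 35.4 RPKM in ALLO and at 50.1 and 60.2 RPKM in ISO and did not pass (log2 change -0.62 ± 0.21, edgeR adjusted p = 0.0807), although it did with the Wald test of DESeq2 (adjusted p = 0.0259). Slit2, which acts on vessels through Robo1 and Robo4, rose 2.46-fold (1.83 and 1.61 RPKM in ALLO, 0.766 and 0.629 RPKM in ISO, edgeR adjusted p = 0.0124), a call lost without ISO replicate 2 (adjusted p = 0.0600).

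Slit1, a Slit mainly of the nervous system, had 36 and 32 counts in ALLO, against 0 in ISO replicates 1 and 2. With a floor of 6 counts per ISO library, it was at least 4.63-fold higher (edgeR adjusted p = 0.0160), and it no longer passed without ALLO replicate 1 (adjusted p = 0.0840) or ALLO replicate 2 (0.0653). Robo2, its neuronal receptor, had 26 and 33 counts in ALLO and none in either ISO library. By the same floor the rise was at least 3.98-fold (edgeR adjusted p = 0.0174). That call was lost without ISO replicate 2 (adjusted p = 0.0506), ALLO replicate 1 (0.0820) or ALLO replicate 2 (0.0836). Of the neuron markers, 2 of 3 tested were higher in ALLO, Snap25, Syt1 and Th were at 0 in both ISO libraries, and the summed level was 14.3 and 78.4 CPM in ALLO and 16.3 and 5.49 CPM in ISO. Schwann cell markers were higher in 4 of 6 cases, with 120 and 184 CPM in ALLO and 27.4 and 16.96 CPM in ISO, and the part of either list in the Slit1 and Robo2 results was not tested. Robo1, which lies next to Robo2 on chromosome 16, did not pass at 0.619 and 0.861 RPKM in ALLO and 0.205 and 0.442 RPKM in ISO (3.55-fold higher without ISO replicate 2, edgeR adjusted p = 0.0380).

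Of 11 netrins, Unc5 receptors and Dcc, 9 were tested, of which 4 fell and 5 did not pass. Ntn1, the secreted ligand netrin-1 (ENSMUSG00000020902.12, chromosome 11, 68209364 to 68400823), stood at 8.86 and 8.82 RPKM in ALLO and at 78.5 and 81.7 RPKM in ISO. Replicates were nearly alike within each group. It fell 9.06-fold (log2 change -3.18 ± 0.21, edgeR adjusted p = 0.00247), the smallest adjusted p among the members, and by 8.88- to 9.33-fold with 1 library left out. Ntn4, a netrin of basement membranes, fell 4.22-fold (5.62 and 13.6 RPKM in ALLO, 39.9 and 41.2 RPKM in ISO, edgeR adjusted p = 0.0227, 7.18-fold without ALLO replicate 2).

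Of the Unc5 receptors of netrins, Unc5c and Unc5d fell, and Unc5a and Unc5b did not pass. Unc5c (ENSMUSG00000059921.15, chromosome 3, 141465216 to 141834924) fell 6.65-fold (0.580 and 0.541 RPKM in ALLO, 3.45 and 4.01 RPKM in ISO, log2 change -2.73 ± 0.20, edgeR adjusted p = 0.00284). Unc5d had 0 counts in both ALLO libraries and 64 and 129 in ISO, at least 19.9-fold lower (edgeR adjusted p = 0.00910). Unc5b, the Unc5 receptor known from endothelium, stood at 7.44 and 18.02 RPKM in ALLO and at 7.204 and 11.0 RPKM in ISO and did not pass. Unc5a had 84 and 170 counts in ALLO and 49 and 4 in ISO (edgeR adjusted p = 0.209), and was 24.1-fold higher without ISO replicate 1 (adjusted p = 0.00648). Dcc, the main netrin receptor of axons, was not detected at this depth, with 0 counts in every library. Smooth muscle markers moved in the direction of Ntn1, Ntn4, Unc5c and Unc5d between the groups. Within ALLO their sum was higher in replicate 2 (2753 CPM, and 1430 CPM in replicate 1), as was Ntn4. Ntn1 and Unc5c were nearly level there, and Unc5d was at 0. The part of the smooth muscle list was not tested.

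The 8 genes that fit the rule by letters gave 4 tested. Unc5cl, a death domain protein, had 22 and 41 counts in ALLO, against 3 and 0 in ISO. The ratio of the groups was 17.04, with a 95% counting interval from 3.68 to 246, and the edgeR adjusted p was 0.0495, a call lost without ISO replicate 2, ALLO replicate 1 or ALLO replicate 2 (edgeR adjusted p between 0.115 and 0.190). Unc50, a Golgi protein, did not pass at 18.4 and 24.1 RPKM in ALLO and 31.8 and 30.4 RPKM in ISO. Slitrk2 and Slitrk6 did not pass. Without these 8 genes the members counted 11 higher and 17 lower of 59 tested, where 18.4% of all genes tested were higher and 14.8% lower.

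The 12 members not tested had at most 71 counts over all 4 libraries. Epha6, Slitrk3 and Dcc had 0 counts in every library. Epha10, Robo3 and Ntn5 had 2, 2 and 4 counts in single ALLO libraries and 0 elsewhere. Slitrk4 and Slitrk5 had at most 12 and 6 counts in any library.

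**Figure D4:**
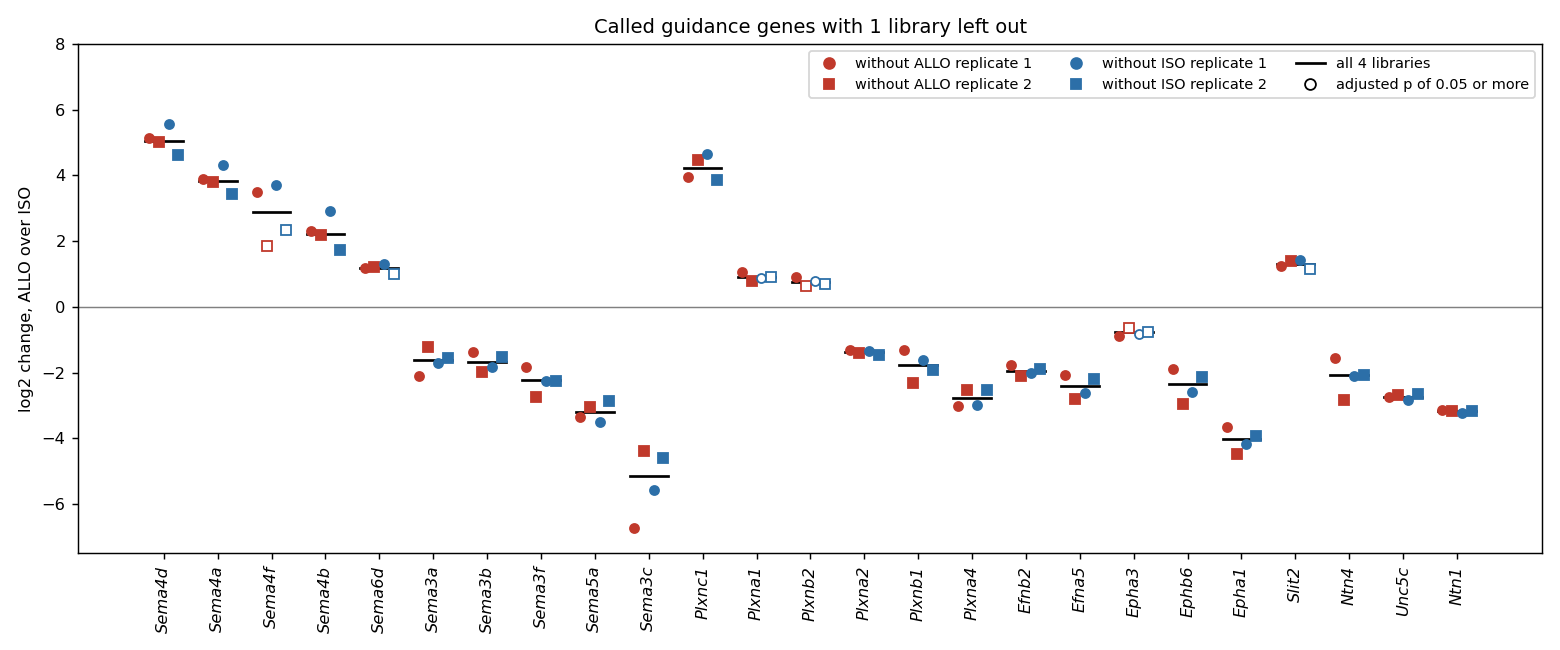
Log2 change (ALLO over ISO) of the 25 called members with more than 3 counts in both groups, with all 4 libraries (black bars) and with each library left out in turn (symbols, open where the adjusted p was 0.05 or more). No point changes side. Open points stand at Sema4f, Sema6d, Plxna1, Plxnb2, Epha3 and Slit2, and the widest spread, from -4.40 to -6.73, is that of Sema3c.

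Co-receptors and signalling partners of these families were followed in a list of 71 genes, 70 of which were found in the table. Of 68 tested, 20 rose and 17 fell, with a median log2 change of 0.28. Those shares were 29.4% higher and 25% lower, where 18.4% of all genes tested were higher and 14.8% lower, and the list was chosen with earlier results known. Among receptors, Cd72, a receptor of Sema4d known from B cells, rose 34.3-fold (21.0 and 29.0 RPKM in ALLO, 0.923 and 0.529 RPKM in ISO, edgeR adjusted p = 0.00284). Of the B cell markers 0 of 6 passed, and their sum was lower in ALLO replicate 2 (138 CPM) than in ALLO replicate 1 (304 CPM). Macrophage markers were higher in ALLO in 7 of 8 cases, and their sum had the ALLO order of Cd72 (3667 and 4182 CPM). Singly, C1qa, C1qb, C1qc and Fcgr1 were higher in ALLO replicate 2. Csf1r, Adgre1 and Cd68 were lower there, and Mertk was nearly level. The part of either list was not tested. Met, the hepatocyte growth factor receptor that associates with B plexins, rose 8.65-fold and Ptk7, a catalytically inactive kinase that binds plexin-A1, 26.8-fold (edgeR adjusted p = 0.00340 and 0.00529). Ptpro, a phosphatase of Eph receptors, rose 19.3-fold (edgeR adjusted p = 0.00438).

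On the lower side, Ngef, the exchange factor ephexin that acts below EphA receptors, fell 20.4-fold (0.395 and 0.267 RPKM in ALLO, 5.66 and 7.84 RPKM in ISO, edgeR adjusted p = 0.00357). Enah, an actin regulator of netrin and Slit signalling, fell 15.8-fold (edgeR adjusted p = 0.00364). Mical3 and Dpysl3, from families that relay plexin signals to the cytoskeleton, fell 4.04- and 4.67-fold (edgeR adjusted p = 0.00549 and 0.00594). The plexin signalling genes gave 3 higher (15%) and 7 lower (35%) of 20 tested. The Eph signalling genes gave 7 higher (43.8%) and 2 lower (12.5%) of 16 tested. Semaphorin co-receptors and other receptors gave 6 higher (60%), Nrp1 and Nrp2 among them, and 1 lower (10%) of 10 tested. Slit and Robo partners gave 2 higher (25%) and 2 lower (25%) of 8 tested. Netrin, RGM and FLRT partners gave 2 higher (14.3%) and 5 lower (35.7%) of 14 tested. The 15%, the 14.3% and the 12.5% lie near the shares of all genes, and differences between these lists were not tested.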

How the data were processed

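RNA sequencing libraries of aortic grafts were used, 2 labelled ALLO and 2 labelled ISO. The values deposited by the authors are whole, unnormalized counts per gene. Subread 1.6.4, featureCounts, DESeq2 1.30.0, R 4.0.3 and build mm10 are named per the submitters' processing notes. How reads were aligned, which annotation was counted, and whether strand or multi-mapping reads were used was not stated, so reads of overlapping genes may be split or shared. Names and biotypes came from GENCODE M21, which matched 54723 of 54752 IDs. No exonic base overlapped another gene in 57 members, and no called member shared more than 10.7%.

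Genes were filtered with filterByExpr (minimum count 10), scaled by TMM and tested across the whole table with edgeR 4.0.16 (glmQLFit and glmQLFTest, with group alone in the model); p-values were adjusted over 16498 genes by Benjamini-Hochberg. The standard error is the log2 change divided by the root of F. Between 68.0% and 74.6% of counts from 1 to 20 were even, the pattern of read pairs counted by mate, so the floor for genes at 0 was 6 counts per library and counting intervals used counts divided by 2. Intervals and bounds cover counting error only, and reads amplified by PCR are not independent molecules. Replicates differed by more than sampling noise (chi-square over degrees of freedom 31.4 in ISO and 107 in ALLO).

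Counts were simulated for this comparison over 16042 genes, with 50 changed genes per fold size. The changed genes had a mean of 50 counts or more, and the spread followed the trend over all genes. The test found 18% of the 2-fold changes, 84% of the 4-fold ones, 98% of the 8-fold ones and 100% of those of 16-fold. Of 15842 unchanged genes, 7 were called. Far fewer genes changed there than the 33.1% called here. Members below that mean, such as Slit1, Robo2 and Unc5cl, were not covered by these rates. Alternatives were other scalings, filters and tests (DESeq2 1.42.0, limma-voom with limma 3.58.1, glmTreat against 1.5-fold), halved counts, removal of immunoglobulin, T cell receptor, mitochondrial and ribosomal RNA genes, a replicate block and each library left out. R 4.3.3, Python 3.11.15 and pandas 2.3.3 were used.

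The members, partner and marker lists were chosen with earlier results of these data known. Values per library are given for up to 6 called members of each family with the smallest adjusted p and for the most abundant member, with the other members added after their values had been seen. Up to 4 partner genes per direction were named by smallest adjusted p, and Nrp1 and Nrp2 were added after their values had been seen.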

Additional observations from a re-analysis of the deposited data

How the results depend on the processing

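Of the 29 called members, all kept their direction under every alternative that gave them a value, and all 29 kept their call with DESeq2 size factors, the Wald test of DESeq2, halved counts and removal of immunoglobulin, T cell receptor, mitochondrial and ribosomal RNA genes. Against a 1.5-fold change, which asks for a larger change, 7 members were higher, in place of 12, and 16 lower, in place of 17. With 1 library left out, the members higher in ALLO ranged from 6 to 13, those lower from 16 to 18, partner genes higher from 13 to 16 and partner genes lower from 14 to 20, and the cause was not tested. There the lone library of a group is assumed to vary like the pair of the other group. Scaling by library size alone moved the median of all genes to 0.22 on the log2 scale, from 0.03. The log2 change of Ephb4, which was not called, was 0.12 with library size only, and ranged from -0.19 to 0.015 with 1 library left out. Of 31 other members that were not called, 12 changed sign and 7 passed under at least 1 alternative. Same-numbered libraries had deviations that correlated at 0.0974 over genes, and only 2 pairs exist, so the numbers were not taken as pairs. With a replicate block 9 members were higher and 16 lower, and 17 partner genes were higher and 18 lower. Sema4f, Plxnb2, Epha3 and Unc5cl lost their calls there. The share of all genes called with the block is not given, so these counts show only how far the calls held. Depth limits the members under 50 counts in every library, such as Slit1, Robo2 and Unc5cl.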

Other observations

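Several weakly detected members with neural roles were high in a single library. Epha5 had 68 counts in ALLO replicate 2, 1 in ALLO replicate 1, and 0 to 2 in the ISO libraries. Epha8 had 16 counts and Slitrk1 12 counts in ALLO replicate 2, against at most 3 in any other library. In the same library the neuron markers Syt1 and Th had 157 and 287 counts, against 4 and 4 in ALLO replicate 1 and 0 in both ISO libraries. Tubb3 and Snap25 were also highest in ALLO replicate 2. Stmn2 was not particular to that library, with 306 counts in it and 243 in ISO replicate 1. Rbfox3 had 6 counts in each ALLO library. Within ISO, Unc5a, Plxnb3, Slitrk2 and Slitrk6 had 49, 36, 10 and 22 counts in replicate 1 and 4, 5, 0 and 0 in replicate 2. Plxnb3 and Slitrk2 lie on the X chromosome, and ISO replicate 1 was the library with 10647 counts of Xist. Between the ISO libraries, replicate 1 first, the summed markers were 43.8 and 0.422 CPM for B cells and 10.5 and 2.17 CPM for T cells. They were 16.3 and 5.49 CPM for neurons, and 27.4 and 16.96 CPM for Schwann cells. Macrophage, lymphatic endothelial, plasma cell and adipocyte sums were also higher in ISO replicate 1, and smooth muscle, endothelial and fibroblast sums lower. The part of these lists, or of sex, was not tested.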
